A study of Homo sapiens with 11 samples.

Results

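The 10 receptors and coreceptors described here, TGFBR1, TGFBR2, TGFBR3, ACVR1, ACVR1B, ACVR2A, ACVR2B, BMPR1A, BMPR2 and ENG, carry the signals of TGF-beta, activins and bone morphogenetic proteins (BMPs) into the cell. They were taken as a set because TGFBR2 was among the genes with lower signal after transfection in an earlier look at these arrays, so the set was chosen by the TGFBR2 values and the other 9 genes by their place in the receptor family. Every probe that the array files name after one of them was used, which gave 10 of 30484 gene names and 17 of 41000 probes. A probe was tested where the scanner software called it well above background on 6 or more of the 11 arrays, and 15 probes of 9 of the receptors met this, of 27111 probes in all. The probe of TGFBR1 and 1 of the 2 probes of ACVR1B did not pass.

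The cells were PC-3, a line from a human prostate cancer, grown in serum and studied 24 hours after transfection. One of 6 duplexes was introduced, dsEcad640 or a synthetic form of 1 of 5 related microRNAs, and mock cells received the transfection reagent with no RNA duplex. dsEcad640 is a double-stranded RNA designed against the promoter of the E-cadherin gene. RNA of 4 transfections was mixed for each array, so 1 array is 1 pool. Set 1 held mock sample 1, dsEcad640, miR-302a and miR-372 sample 4. Set 2 held mock sample 8, miR-373 and miR-520f, whose title spells it miR-530f while its other labels read miR-520f. Set 3 held mock samples 9 and 11, miR-372 sample 10 and miR-520c. Only miR-372 and mock had over 1 array, and the labels do not say whether the pools came from separate cultures, so p-values measure the spread between these arrays, part of which may be technical.

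Signalling by this family starts when a ligand brings together type II and type I receptors, both of them kinases. The type II receptor phosphorylates the type I receptor, which then phosphorylates SMAD proteins that move to the nucleus. TGFBR2 is the type II receptor for TGF-beta, ACVR2A and ACVR2B serve activins and several BMPs, and BMPR2 serves BMPs. TGFBR1, ACVR1, ACVR1B and BMPR1A are type I receptors, and TGFBR3 (betaglycan) and ENG (endoglin) are coreceptors that present ligands.

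The mature strands of the 5 microRNAs are shown because their seeds define the comparison. The seed, bases 2 to 8 from the 5′ end, is the stretch that pairs with target mRNAs, and it is written in capitals. Sequences and positions are those of RefSeq on GRCh38.p14.
hsa-miR-302a-3p, chr4:112648186-112648208, minus strand: uAAGUGCUuccauguuuugguga
hsa-miR-372-3p, chr19:53787931-53787953, plus strand: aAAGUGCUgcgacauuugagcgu
hsa-miR-373-3p, chr19:53788748-53788770, plus strand: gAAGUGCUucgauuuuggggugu
hsa-miR-520c-3p, chr19:53707506-53707527, plus strand: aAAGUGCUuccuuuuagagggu
hsa-miR-520f-3p, chr19:53682213-53682234, plus strand: aAGUGCUUccuuuuagaggguu
The first 4 share 1 seed and dsEcad640 carries the same one, so these 5 duplexes, with 6 arrays, are called common-seed duplexes. The seed of miR-520f is shifted by 1 base. The site that pairs with the common seed reads AGCACUU, and the site for miR-520f reads AAGCACU. Whether the receptor transcripts hold these sites was not analysed here.

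Levels are given as log2 of the processed signal minus the 75th percentile of such values on that array, so 0 is the level of that percentile, and they can be set against each other for 1 probe across arrays but not between probes. A difference is a difference of such levels, and 1 on that scale is a doubling. The share of all probes well above background was 54.4% to 72.8% on 10 arrays and 88.1% on miR-372 sample 4, which stands apart. On that array 28.9% of tested probes were at least 0.5 above the mock of its set, so results that rest on it are also given without it. Between mock samples 9 and 11 the median absolute difference was 0.22. PC-3 cells were checked by markers. KRT8, KRT18 and VIM, which encode cytokeratins and vimentin, were well above background on 11 of 11 arrays. So was 1 of 3 probes of KLK3, which this line is known to express little of, at levels from 3.09 to 7.14, while the other KLK3 probes were so on 4 and 1 arrays. KLK3 therefore went against the label in part.

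TGFBR2, the receptor by which the set was chosen, was lower with every common-seed duplex. Its probe A_23_P211957, at chr3:30710167-30710226 on hg18, had levels of 2.88, 2.91, 3.25 and 3.17 on mock samples 1, 8, 9 and 11. The level was 0.75 with dsEcad640, 1.00 with miR-302a, 0.94 and 1.35 on miR-372 samples 4 and 10, 1.44 with miR-373 and 1.00 with miR-520c. All 6 common-seed arrays lay below all 4 mock arrays, and the miR-520f array, at 1.73, lay between the common-seed and the mock arrays. The fitted difference from mock was -1.89 (SE 0.125, 95% confidence interval -2.18 to -1.60), or 0.27 of the mock signal. No test is given for it, since this contrast chose the gene.

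The arrays differed little among themselves at this probe. Against the mock of its own set, the signal was 0.217 of mock with miR-520c, 0.229 with dsEcad640, 0.261 and 0.276 on the 2 miR-372 arrays, 0.271 with miR-302a and 0.36 with miR-373. The 2 miR-372 arrays, from different sets, were 0.08 apart on the log2 scale, which is about the gap of 0.08 between mock samples 9 and 11. The miR-373 array was the least reduced of the 6, at -1.47.

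The other TGFBR2 probe, A_23_P337242, spans 14197 bases of hg18 at chr3:30690717-30704913, against 60 bases for most of the probes, so it lies across at least 1 intron. Its levels were -2.77, -2.78, -3.47 and -3.47 on mock samples 1, 8, 9 and 11. They were -4.20 with dsEcad640, -3.95 with miR-302a, -3.90 with miR-373, -4.37 with miR-520c and -3.65 with miR-520f. The 2 miR-372 arrays disagreed, with -4.44 on sample 10, below its mock arrays, and -2.50 on sample 4, above its mock. The fitted difference was -0.92 (SE 0.316), and -1.09 without miR-372 sample 4.

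**Figure D1:**
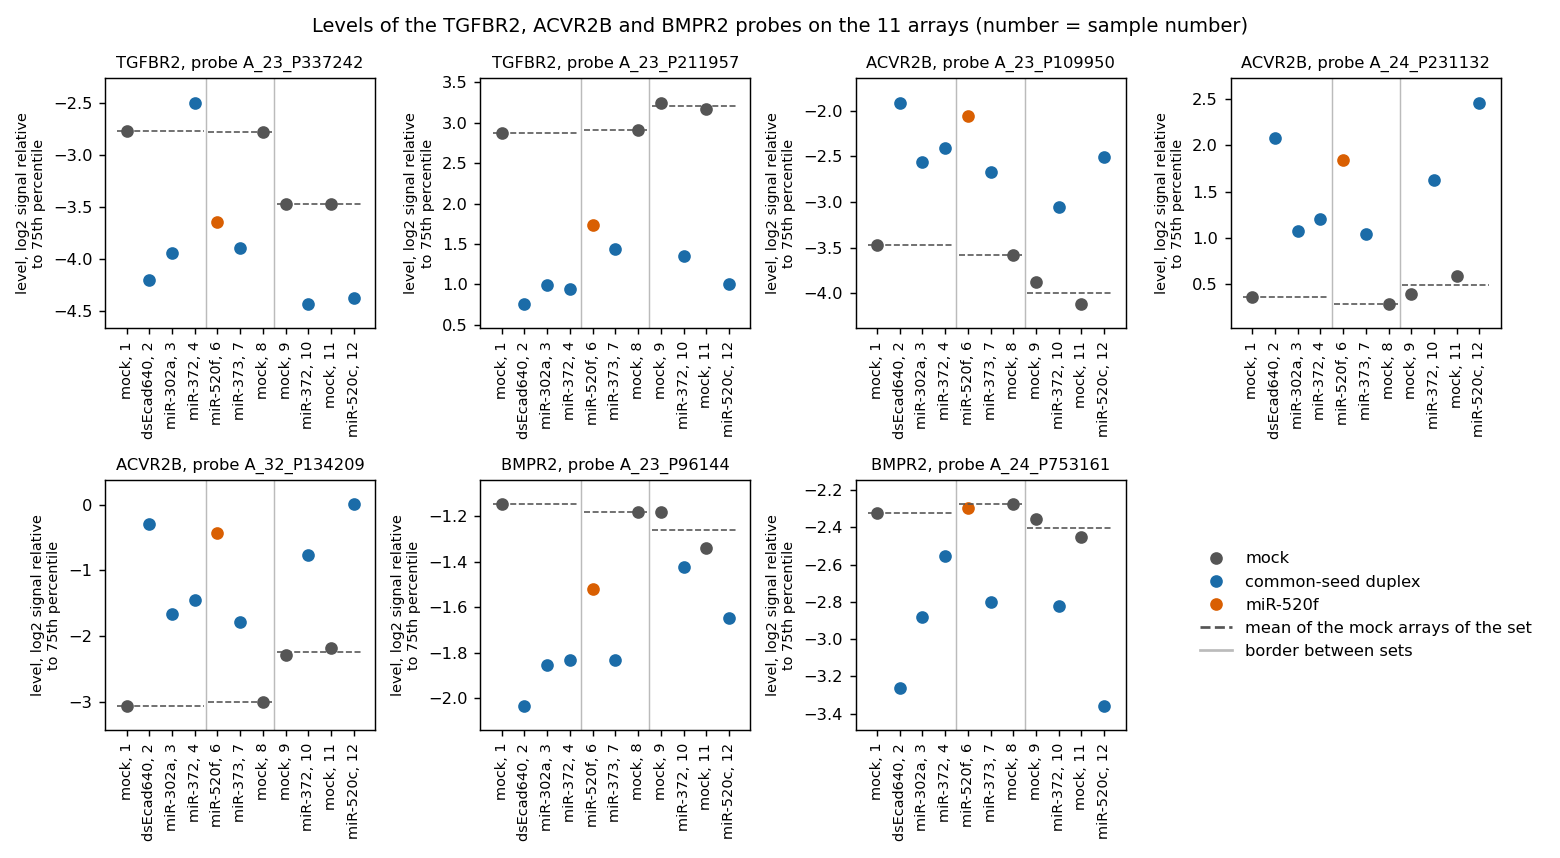
Levels (log2 signal minus the 75th percentile of the array) of 7 probes of TGFBR2, ACVR2B and BMPR2, with 1 point per array, arrays in sample order on the x axis, vertical lines between sets and dashed lines at the mean of the mock arrays of a set. All 6 common-seed arrays lie below the mock arrays at TGFBR2 probe A_23_P211957 and above them at the 3 ACVR2B probes.

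ACVR2B, a type II receptor for activins, rose on all its 3 probes. At probe A_32_P134209 (hg18 chr3:38509311-38509370), mock levels were -3.06, -3.00, -2.29 and -2.19 on samples 1, 8, 9 and 11. They were -0.29 with dsEcad640, -1.66 with miR-302a, -1.44 and -0.76 on miR-372 samples 4 and 10, -1.79 with miR-373 and 0.00 with miR-520c. No common-seed array overlapped a mock array, although the mock arrays of set 3 lay above those of sets 1 and 2. The fitted difference was 1.74 (SE 0.301, interval 1.04 to 2.43), or 3.34 times the mock signal, with an adjusted p of 0.025 in limma over all probes.

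The same held at the other ACVR2B probes. At A_24_P231132 (chr3:38499784-38499843), the mock arrays lay between 0.29 and 0.60 and the 6 common-seed arrays between 1.05 and 2.46, with a median difference from the mock of the set of 0.99. The fitted difference was 1.22 (SE 0.264) with an adjusted p of 0.046 in limma. At A_23_P109950 (chr3:38496226-38496285), the mock arrays lay between -4.12 and -3.48 and the common-seed arrays between -3.05 and -1.91. Here the fitted difference was 1.14 (SE 0.169), or 2.20 times mock, with an adjusted p of 0.0144 in limma. Each of the 3 probes was higher on 6 of 6 common-seed arrays than the mock of the set.

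The duplexes with the largest ACVR2B differences were the same at each probe, but their order was not. dsEcad640, miR-520c and miR-520f had the 3 highest values of the 7 duplex arrays at all 3 probes. The highest was miR-520c at A_24_P231132, at 3.90 times mock, and dsEcad640 at the other probes. At A_32_P134209 they were at 6.81, 4.73 and 5.94 times the mock of their sets, and the other 4 arrays were at 2.31 to 3.07 times. At A_23_P109950 all 7 arrays lay between 1.88 and 2.96 times. The 3 probes share arrays and RNA, so they do not count as replicates of each other.

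The ACVR2B calls depended on the arrays and the processing used. They held in 10 of 16 alternatives at A_23_P109950, in 7 at A_32_P134209 and in 5 at A_24_P231132. With no filter, and without mock sample 1, 8 or 11 or miR-373, none of the 3 probes passed (adjusted p up to 0.196 in limma), while the difference stayed above 0 in all 16 alternatives for each probe. With normexp background correction the difference at A_23_P109950 was 0.61.

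BMPR2, the type II receptor for BMPs, was lower on 6 of 6 common-seed arrays at both of its probes but did not pass the threshold. Probe A_24_P753161 (hg18 chr2:203139767-203139826) had levels of -2.32, -2.28, -2.36 and -2.45 on mock samples 1, 8, 9 and 11. They were -3.26 with dsEcad640, -2.88 with miR-302a, -2.55 and -2.82 on miR-372 samples 4 and 10, -2.80 with miR-373 and -3.36 with miR-520c. The groups did not overlap, and dsEcad640 and miR-520c were the lowest arrays. The fitted difference was -0.61 (SE 0.163, interval -0.99 to -0.24; adjusted p = 0.0778, limma).

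At the other BMPR2 probe, A_23_P96144 (chr2:203132877-203132936), the mock arrays lay between -1.34 and -1.15 and the common-seed arrays between -2.03 and -1.42. The difference was -0.52 (SE 0.117; adjusted p = 0.051, limma). Without miR-372 sample 4 both probes passed (adjusted p = 0.0322 and 0.0476, limma), as did the mean of both probes (-0.57, adjusted p = 0.0471, limma). Over 16 alternatives the adjusted p ran from 0.0322 to 0.263 at the first probe and from 0.0254 to 0.258 at the second, always with a negative difference. The miR-520f array, with levels of -2.30 and -1.52, was within the mock range at the first probe and below it at the second.

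ACVR2A, the other activin type II receptor, had a fitted difference of 0.44 (SE 0.263; adjusted p = 0.393, limma). Its mock levels lay between -3.80 and -3.31, and its common-seed levels between -3.38 and -2.08. The 6 arrays were 0.06 to 1.72 above the mock of their sets, with the highest value on miR-372 sample 4 and the next, 0.95, with dsEcad640. miR-520c, miR-373 and miR-372 sample 10 were at most 0.18 above it.

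The type I receptors showed no difference that passed the test. ACVR1, a type I receptor for BMPs and activins, was at -0.33 (interval -0.68 to 0.02; adjusted p = 0.259, limma), with its lowest array, miR-372 sample 10, at -0.86 from mock. ACVR1B, the activin type I receptor, was at -0.02 (interval -0.38 to 0.35) at the probe that passed the filter. The 3 probes of BMPR1A, a BMP type I receptor, were at -0.10, -0.08 and 0.01, the last with an interval of -0.97 to 0.99. That probe, A_24_P418717, was not well above background on the miR-373 and miR-520f arrays and was 3.17 times mock on miR-372 sample 4. For probe A_23_P1431 the interval was -0.35 to 0.20, the narrowest of the 3.

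TGFBR1, the partner of TGFBR2 in TGF-beta signalling, was measured by 1 dim probe, A_23_P123943 (hg18 chr9:100952018-100952077). It was well above background only on the 4 arrays of set 3, at -5.66 and -5.49 on the mock arrays, -5.07 on miR-372 sample 10 and -5.05 with miR-520c. Both duplex arrays lay above both mock arrays, by 0.50 and 0.52 from their mean, and no test was made. The second ACVR1B probe was well above background on 1 array, miR-372 sample 4.

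The coreceptors did not pass either. TGFBR3 was at 0.22 (interval -0.62 to 1.05; adjusted p = 0.802, limma) and ENG at -0.07 (interval -0.59 to 0.45; adjusted p = 0.91, limma). For TGFBR3, 5 of 6 common-seed arrays lay between -0.08 and 0.30 from mock and miR-372 sample 4 at 1.65. ENG was not well above background on the miR-373 and miR-520f arrays.

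TGFBR2 is left out of the counts of calls, since its values chose the set. Of the other 13 receptor probes past the filter, 3 were called higher with the common-seed duplexes, all of ACVR2B, where 2.15% of all probes were. None of the 13 was called lower in limma, where 2.05% of all probes were. The median difference was -0.02 over the 13 probes and 0.03 over all probes. At an unadjusted p under 0.05, 5 of the 13 probes, those of ACVR2B and BMPR2, and 21.1% of all probes passed in limma. Over all probes the count of calls rested on single mock arrays, with 24 in place of 1141 without mock sample 1.

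miR-520f was set against mock by its 1 array, with the spread taken from the other arrays. In limma 0.661% of all probes were called in this comparison and none of the 13 receptor probes. At an unadjusted p under 0.05 in limma, 4 of the 13 and 12.4% of all probes passed. These were the ACVR2B probes and the ENG probe, at -1.04. ENG was not well above background on the miR-520f array and its level gives no bound below mock, so that fall was not measured. TGFBR2 probe A_23_P211957 was at -1.39 (SE 0.238), or 0.383 of mock, a value given as a description, since this array was among those that chose the gene. The ACVR2B probes were at 1.64, 1.79 and 2.84, with adjusted p of 0.0754, 0.177 and 0.0803 in limma. TGFBR3 was at 1.12 (interval -0.46 to 2.71) and BMPR1A at 0.28, 0.62 and 0.52. BMPR2 was at -0.06 (interval -0.78 to 0.65) and -0.27.

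The difference between miR-520f and the common-seed duplexes was tested directly. It was called for 0.0591% of all probes and for none of the 13 receptor probes (lowest adjusted p = 0.584, limma). An unadjusted p under 0.05 in limma was reached by 1 of the 13 and by 7.41% of all probes. That probe was A_23_P1431 of BMPR1A (unadjusted p = 0.0314, limma), which lay 0.59 higher with miR-520f (interval 0.07 to 1.12). TGFBR2 probe A_23_P211957 was 0.51 less reduced by miR-520f (interval -0.04 to 1.05). ACVR2B probe A_32_P134209 was 2.14 times as high with miR-520f (log2 interval -0.22 to 2.42). These intervals span 0 for TGFBR2 and ACVR2B and are wide, because miR-520f has 1 array.

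Array by array, the receptors at least 0.5 from the mock of the set were counted beside the same share of all tested probes. The 15 probes counted include both TGFBR2 probes, whose lower values on these arrays chose the set. The counts of lower probes, here and in the next paragraph, are therefore a description and cannot be read against that share. With dsEcad640, 5 of 15 receptor probes were lower (TGFBR2, BMPR2 and ACVR1B) and 4 higher (ACVR2A and ACVR2B), where 13.8% and 7.58% of all probes were lower and higher. With miR-302a, 5 were lower (TGFBR2, BMPR2 and ENG) and 4 higher (ACVR2A and ACVR2B), beside 8.03% and 5.02%. With miR-373, 5 were lower (TGFBR2, BMPR2 and BMPR1A) and 3 higher (ACVR2B), beside 11.9% and 4.42%. The BMPR1A probe was not well above background there and was lower by at least 1.36-fold, a bound short of 0.5, so 4 of the 5 were measured as lower. ACVR2B thus recurred as higher on these arrays of both sets, while TGFBR2, by which the set was chosen, was lower on them.

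On miR-372 sample 4, 2 receptor probes were lower and 7 higher, beside 3.96% and 28.9% of all probes. On miR-372 sample 10, 3 were lower (TGFBR2 and ACVR1) and 3 higher (ACVR2B), beside 6.2% and 7.88%. The receptors ACVR2A, BMPR1A and TGFBR3 were thus higher on the first miR-372 array and not on the second. With miR-520c, 4 were lower (TGFBR2, BMPR2 and BMPR1A) and 4 higher (ACVR2B and ACVR1B), beside 14.9% and 18.1%. With miR-520f, 3 were lower (TGFBR2 and ENG) and 7 higher (ACVR2A, ACVR2B, BMPR1A and TGFBR3), beside 18.5% and 7.33%. ENG was not well above background there and its level gives no bound below mock, so 2 of the 3, both of TGFBR2, were measured as lower.

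**Figure D2:**
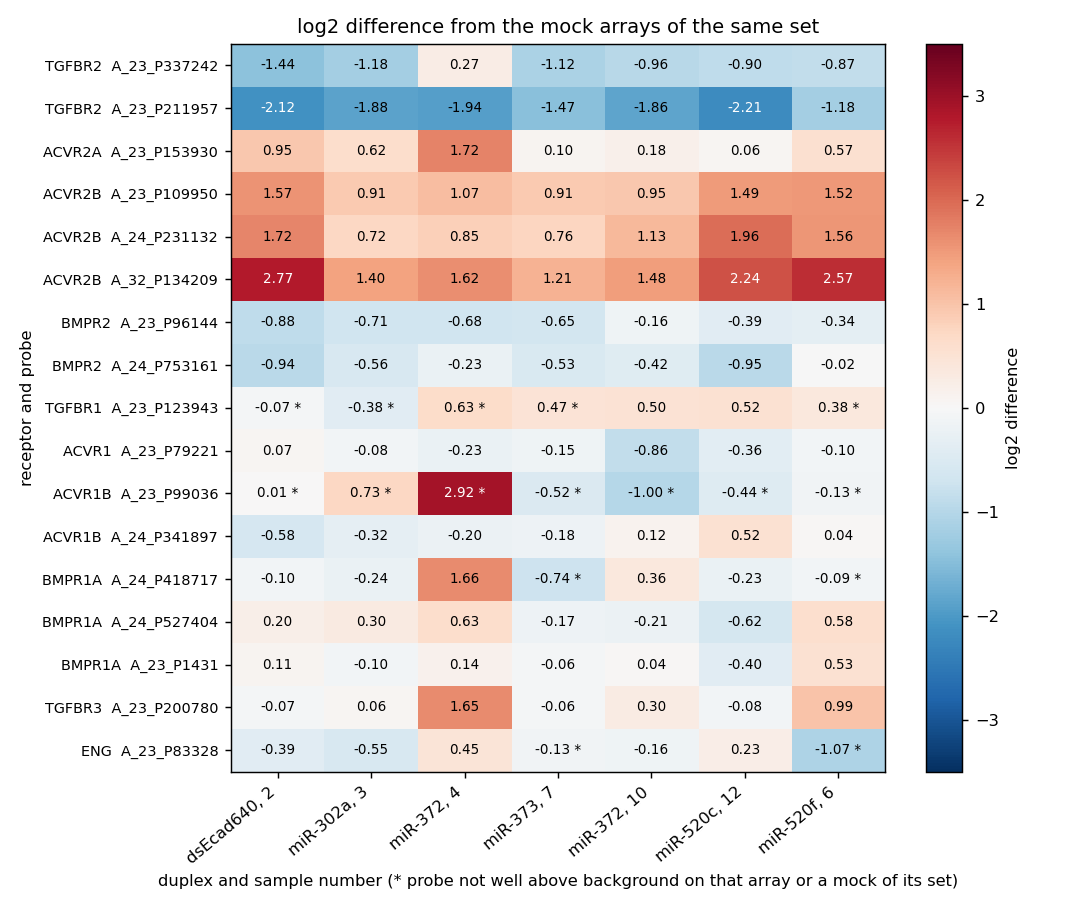
Log2 difference of each of the 17 receptor probes (rows) from the mock arrays of the same set, for the 7 duplex arrays (columns), with an asterisk where the probe was not well above background on that array or on a mock array of its set. TGFBR2 probe A_23_P211957 is between -2.21 and -1.18 and the ACVR2B probes between 0.72 and 2.77 on all 7 arrays, while miR-372 sample 4 is high at BMPR1A (1.66), TGFBR3 (1.65) and ACVR2A (1.72).

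Other genes of the pathway were read from 7 lists of 74 genes, with 85 probes past the filter. In limma none was called lower with the common-seed duplexes and 4 were called higher, or 4.71% of them, beside 2.05% and 2.15% of all probes. The lists differed little in their medians, which ran from -0.06 for 13 SMAD probes to 0.19 for 2 probes of the remaining receptors of the family. Of 8 probes of other coreceptors and decoy receptors and of 11 ligand probes none passed.

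The probes called higher belonged to SMURF2, NOG and ID1. SMURF2 encodes a ubiquitin ligase that targets receptors and SMADs for degradation, and its probes rose by 0.46 (SE 0.085; adjusted p = 0.0296, limma) and 0.42 (SE 0.092; adjusted p = 0.046, limma). They were 2 of 23 probes of receptor-associated regulators. NOG encodes noggin, a secreted antagonist of BMPs, and its level rose by 1.19 (SE 0.224; adjusted p = 0.0309, limma), 1 of 6 antagonist probes. On mock samples 1, 8, 9 and 11 the NOG levels were -1.76, -1.83, -2.76 and -3.80, so the mock arrays themselves spread widely, while within sets the common-seed arrays were 0.88 to 1.72 above mock.

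ID1, a transcriptional regulator induced by BMP signalling, was the only gene of the target list called higher, with 1 of 22 probes. Of those 22 probes, 12 lay above 0 and 10 below. ID1 had a single probe. Its levels were 4.94, 4.93, 4.90 and 5.09 on mock samples 1, 8, 9 and 11. They were 5.70 with dsEcad640, 5.55 with miR-302a, 5.33 and 5.54 on miR-372 samples 4 and 10, 5.31 with miR-373 and 5.96 with miR-520c. No array overlapped the mock range, and the fitted difference was 0.61 (SE 0.128; adjusted p = 0.0415, limma). With miR-520f the level was 6.14, the highest of the 11 arrays (adjusted p = 0.0638, limma). The calls with the common-seed duplexes held in 6 and 3 of 16 alternatives for the SMURF2 probes at 0.46 and 0.42, in 7 for NOG and in 5 for ID1.

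No SMAD probe passed. SMAD1, which carries BMP signals, was at 0.62 and 0.40 (adjusted p = 0.0519 and 0.0853, limma), and lay above mock on 6 of 6 common-seed arrays at both probes. Without miR-372 sample 4 its first probe passed (adjusted p = 0.0318, limma), as it did in 5 of 16 alternatives (0.0252 to 0.198). SMAD2 and SMAD3, which carry TGF-beta and activin signals, lay between -0.23 and 0.18.

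**Figure D3:**
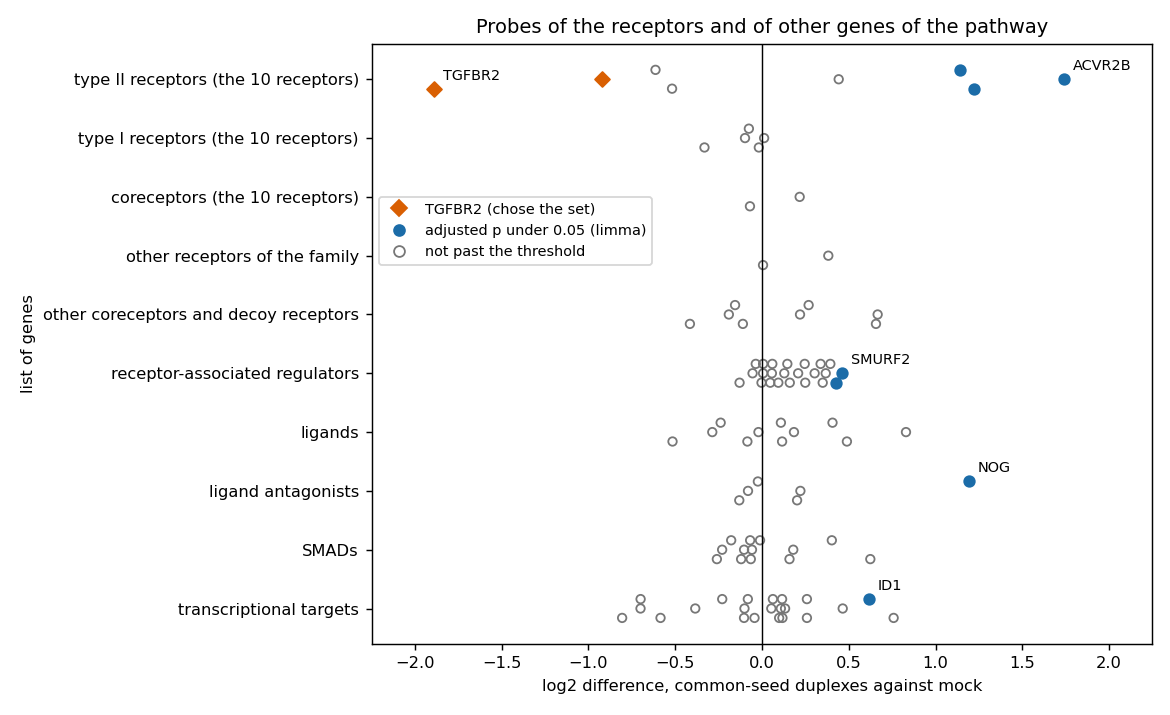
Log2 difference with the common-seed duplexes (x axis) for each probe past the filter, by list of pathway genes (y axis), with filled circles past the threshold in limma and diamonds for TGFBR2, whose values chose the set. ACVR2B, NOG, ID1 and SMURF2 are the genes with filled circles, all above 0.

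The cytokeratin markers of the cells moved in the same arrays. In all, 5 of 8 probes of KRT8, KRT18 and VIM were called higher, both of KRT8 (0.49 and 0.88) and 3 of 4 of KRT18 (0.62, 0.73 and 0.78), and none lower. Their part in the receptor results was not tested. The VIM probes were at -0.18 and -0.30 and did not pass. RNA was taken from whole cultures, so fewer cells of a kind and less RNA per cell cannot be told apart.

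The genes whose arrays followed TGFBR2 most closely were found by Pearson's r with the mean of the 2 TGFBR2 probes over the 11 arrays, after subtraction of the mock mean of each set. They were FAM50B (r = 0.99), KATNAL1 (0.98), FLJ20021 (0.98), PLCD1 (0.98) and GNPDA2 (0.98). Their fitted differences with the common-seed duplexes were -1.22, -0.59, -0.26, -0.34 and -1.67. The 11 points share the mock arrays and the sets, so the values are a description.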

How the data were processed

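Total RNA was labelled with Cy3 and hybridised to 11 single-colour Agilent arrays. Per the file headers, the deposited scanner intensity values were made with Feature Extraction 10.5.1.1 on a design with hg18 probe positions, and the authors' deposited log2 table, whose normalization is not given in the sources used here, served as an alternative. Outlier-marked spots (52 to 209 of 43376 per array) were left out, no spot was saturated, spots of a probe were averaged, and each array's 75th percentile was subtracted from its log2 processed signals. Probes well above background on at least 6 arrays were fitted with limma 3.58.1 (R 4.3.3), with group means and the set as a block (6 residual degrees of freedom), two-sided, with Benjamini-Hochberg adjustment over all probes and a threshold of 0.05. Summaries used Python 3.11.15. The fit was tested on simulated data, where 57% of made log2 changes of 1 and 89% of changes of 2 were called. There were 8 false calls among 26912 probes. A probe that did not pass may therefore still differ. How precise a value is depends on the number of arrays. Set 3, scanned later, differed from sets 1 and 2 at 14296 of 27110 probes.

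The members, lists and tests were chosen with earlier results of these data known. All receptor probes are named, list genes only where past the threshold, and SMAD1 to SMAD3 were added after their values were seen. Some items are not reported here. Alternatives were no block, quantile normalization, normexp (offset 50), no filter, a filter on all 11 arrays, the authors' table, gene means, each mock or common-seed array left out, other mock arrays for TGFBR2 and a difference of 1 in place of 0.5.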

Additional observations from a re-analysis of the deposited data

Results flagged for a closer look

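Among 30 groups of values checked (mock levels, and common-seed differences from the mock of the set, for 15 probes), 2 held an array far from the others; chance alone marks about 1 in 20 such groups. Both were miR-372 sample 4. At TGFBR2 probe A_23_P337242 it was 0.27 above its mock, where the other 5 arrays lay between -1.44 and -0.90. At TGFBR3 probe A_23_P200780 it was 1.65 above its mock, where the others lay between -0.08 and 0.30. The second miR-372 array was at -0.96 and 0.30 at these probes.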

How the results depend on the processing

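Receptor probes past the threshold with the common-seed duplexes (1 lower, TGFBR2, counted here as a description, and 3 higher) were 2 lower with quantile normalization and with normexp, 3 with the filter on all 11 arrays, and 4 with the authors' table. Higher calls numbered 1 with no block and 0 with no filter. Leaving out arrays gave 1 to 4 lower and 0 to 3 higher calls: 0 higher without mock sample 1, 8 or 11 or miR-373, 1 without mock sample 9, miR-372 sample 10 or miR-520c, and 4 lower without miR-372 sample 4. Gene means gave 2 lower genes in place of 1, BMPR2 with TGFBR2. For miR-520f, 0 lower calls became 1, TGFBR2 again, with quantile normalization, normexp, the filter on all arrays or the authors' table, and 0 to 1 on leaving out arrays; 0 higher calls became 2 with the filter on all arrays, and 0 to 2 on leaving out arrays. At TGFBR2 probe A_23_P337242, miR-372 sample 4 turned from 0.27 to -0.84 with quantile normalization and -0.74 with the authors' table. TGFBR2 probe A_23_P211957 stayed between -2.01 and -1.74 in 16 alternatives. The cause of these changes was not tested. Over all probes, the 1141 calls became 24 without mock sample 1, 273 without mock sample 8 or miR-373, 388 with no block, 215 with no filter and 2097 with the filter on all arrays. For miR-520f the 179 calls became 0 without mock sample 1, 2 without mock sample 8, 3 without miR-373, 84 with no block, 1 with no filter, 337 with the filter on all arrays and 454 with quantile normalization. The set matched each duplex to its mock; the labels number each array once, so no replicate numbers could pair the groups further.

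Each duplex but miR-372 had 1 array, dim probes have only bounds on set 2, and no exon or untranslated region was assigned to the probes.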
